A study of Homo sapiens with 66 samples.

Results

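The genes described here are 10 splicing factors of the SR group, SRSF1, SRSF2, SRSF3, SRSF4, SRSF5, SRSF6, SRSF7, SRSF10, SRSF11 and TRA2A. They were chosen by name from a table of 20167 genes, and each was present in the table and passed the filter on low counts in every comparison. RNA sequencing was performed on AMO1, a multiple myeloma line, and on L363-CFZr, a subline of the plasma cell leukemia line L363 that is resistant to the proteasome inhibitor carfilzomib (CFZ). Cells of both lines were exposed for 6 h or 24 h to the vehicle DMSO or to 1 µM of NCP26, NCP22, halofuginone (HFG, also labelled MAZ1392) or halofuginol (HFol, also labelled MAZ1805), and AMO1 cells were also exposed to CFZ. This gave 22 groups of 3 replicates. NCP26 and HFG inhibit the prolyl-tRNA synthetase activity of the bifunctional enzyme GluProRS, which loads proline onto its transfer RNA. HFG and halofuginol are derivatives of febrifugine, and NCP26 was developed from NCP22, so that each pair consists of structurally related compounds. The study chose NCP22 and halofuginol to target the same activity, and it calls their potency lower or absent. In the study's methods, which name AMO1 only, the 6 h samples were frozen overnight before RNA extraction and the 24 h samples were kept on ice. Storage and exposure time therefore cannot be told apart in the AMO1 libraries themselves. How the L363-CFZr samples were stored is not described there. Each time point had its own DMSO group.

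SR proteins bind exonic enhancer sequences through RNA recognition motifs and recruit the splicing machinery through domains rich in arginine and serine. Many SR genes carry ultraconserved "poison" exons, or alternatively spliced stretches at their end, whose inclusion brings a premature stop codon into the transcript. Such transcripts are degraded by nonsense-mediated decay, a pathway that requires a ribosome to read the transcript up to the stop, and several SR proteins promote inclusion in their own transcripts and so limit their own level. Blocking translation stabilizes these transcripts. The comparisons below address how the summed RNA of each gene differed when the charging of a transfer RNA was inhibited. The counts are per gene, so transcripts that encode the full protein and transcripts that carry a premature stop cannot be separated in these data.

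In the GENCODE v44 annotation of GRCh38, all 10 genes have at least 1 transcript annotated as a substrate of nonsense-mediated decay. In 6 of the 10 genes at least 1 such transcript holds an internal exon that is absent from the main coding transcript and contains the premature stop. The annotation holds 2 such exons for SRSF3, 3 each for SRSF7 and SRSF11 and 1 each for SRSF4, SRSF6 and TRA2A. The SRSF7 exons of 276 and 449 bases are overlapping forms with a shared end. For the SRSF11 exon of 109 bases, the annotated stop was not in frame with the annotated coding start, which is not an ATG. The start of 1 such exon is shown for each of the 4 genes of this kind whose level spread most over the 22 groups. For SRSF3 and SRSF7 this is the longest. The sequence runs from the first base of the exon to the stop codon, which is in capitals. In the decay transcript with the TRA2A exon (chr7:23522132-23522432, minus strand, 301 bases) the reading frame ends after 59 residues. Part of these residues is encoded by the exon itself and is absent from the main protein of 282 residues. The TRA2A exon is also part of 1 transcript annotated as coding. The SRSF3 exon shown (chr6:36599821-36600276, plus strand) has 456 bases, the SRSF6 exon (chr20:43459153-43459420, plus strand) 268 bases and the SRSF7 exon shown (chr2:38748898-38749346, minus strand) 449 bases.
TRA2A: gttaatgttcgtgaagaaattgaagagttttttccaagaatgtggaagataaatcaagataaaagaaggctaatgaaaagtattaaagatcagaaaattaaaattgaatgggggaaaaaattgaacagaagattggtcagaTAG
SRSF3: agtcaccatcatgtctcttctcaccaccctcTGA
SRSF6: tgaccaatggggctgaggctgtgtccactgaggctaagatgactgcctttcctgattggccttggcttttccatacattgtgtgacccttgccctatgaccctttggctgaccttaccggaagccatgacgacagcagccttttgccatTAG
SRSF7: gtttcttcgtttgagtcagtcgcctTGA
The stop lies 34 bases into the SRSF3 exon and 28 bases into the SRSF7 exon, but 144 and 152 bases into the exons of TRA2A and SRSF6. SRSF1, SRSF2, SRSF5 and SRSF10 have no internal exon of this kind in the annotation, although SRSF1 has 3 and SRSF2 has 2 transcripts annotated as decay substrates.

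The libraries held between 1666325 and 6596543 counts, with a median of 3165566. The study's methods describe replicates as biological triplicates in general, and p-values measure the spread between these samples. The summed level of 10 plasma cell markers was 4795 to 10677 CPM (counts relative to the scaled library size) in AMO1 and 4759 to 9738 CPM in L363-CFZr, against 13.2 to 42.1 CPM and 1.07 to 11.8 CPM for markers of other blood and stromal cells. Replicate 2 of L363-CFZr DMSO at 24 h and replicate 2 of AMO1 CFZ at 24 h correlated least with their own replicates (mean r of 0.940 and 0.945 across genes). The main tests of their groups are given with and without them, whereas larger fits of many groups always kept them. The sample numbers in the labels also form 3 sets of 22, and treated and DMSO samples differed in set in AMO1 at 24 h (except for replicate 1 of CFZ) and in L363-CFZr at 6 h for HFG, halofuginol and replicate 3 of NCP22. The DMSO libraries of the 2 lines never shared a set. ASNS, a gene of the amino acid response, checked the effect of NCP26 and was called higher with it at 6 h in both lines, with log2 fold changes of 0.91 in AMO1 and 2.33 in L363-CFZr. Of a list of 8 stress response genes in AMO1 at 6 h, NCP22 had 3 higher and 2 lower (62.5%, compared with 13.5% of all genes). Halofuginol had 2 higher and 0 lower there (25%, compared with 3.62%). In L363-CFZr at 6 h NCP22 had 0 called (0% of all genes) and halofuginol 0 higher and 5 lower (62.5%, compared with 25.8%).

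In AMO1 cells exposed to NCP26 for 6 h, TRA2A, SRSF6, SRSF3, SRSF10 and SRSF7 rose and SRSF2 and SRSF1 fell. In this contrast 7 of the 10 genes passed an adjusted p of 0.05 (quasi-likelihood test of edgeR, Benjamini-Hochberg over all genes tested), compared with 37.3% of all genes tested. The median log2 fold change of the 10 genes was 0.39, against −0.01 over all genes. TRA2A, which binds purine-rich exonic enhancers as a co-activator of splicing, stood at 78.7, 79.8 and 91.4 CPM in the 3 DMSO libraries and at 186.1, 176.0 and 177.6 CPM in the 3 NCP26 libraries. All NCP26 libraries were thus above all DMSO libraries, and the fold was 2.17 (log2 fold change 1.12, SE 0.10, adjusted p = 7.38e-06). SRSF3, the smallest SR protein, which also acts in mRNA export, measured 270.1, 308 and 327 CPM with DMSO and 456, 484 and 461 CPM with NCP26, a log2 fold change of 0.64 (SE 0.10, adjusted p = 0.000518). SRSF6, a regulator of alternative splicing whose poison exon is printed above, went from 163, 152 and 189 CPM to 271, 278 and 294 CPM. Its log2 fold change of 0.75 (SE 0.11, adjusted p = 0.00021) was the second highest of the 10. SRSF7, an SR protein with a zinc knuckle, and SRSF10, which can repress splicing when dephosphorylated, rose by 0.59 (SE 0.10) and 0.60 (SE 0.10) on the log2 scale, and for both genes the treated libraries lay above the DMSO libraries.

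SRSF2 and SRSF1 went in the opposite direction. SRSF2, an SR protein that remains in the nucleus and binds both purine- and pyrimidine-rich enhancers, measured 360.0, 362 and 403 CPM with DMSO and 206, 220.1 and 193 CPM with NCP26. Its level was 1.81-fold lower (log2 fold change −0.85, SE 0.10, adjusted p = 6.27e-05). SRSF1, the founding SR protein, measured 395, 416 and 462 CPM with DMSO and 268, 326 and 295 CPM with NCP26 (log2 fold change −0.51, SE 0.11, adjusted p = 0.00305). The groups did not overlap for either gene. In bulk RNA, less of a transcript per cell and fewer cells that make it cannot be told apart. SRSF4 (0.06, 95% interval −0.15 to 0.27), SRSF5 (0.18, −0.12 to 0.49) and SRSF11 (0.20, −0.07 to 0.47) did not pass the test. SRSF5 varied most among its treated replicates, at 280.1, 209 and 319 CPM, so a change of that size could not be resolved.

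HFG at 6 h was compared with the same 3 DMSO libraries, so its values are not independent of those for NCP26. Of the 10 genes 9 were called, compared with 54.3% of all genes, and the median log2 fold change was 0.51 against 0.01 over all genes. TRA2A stood at 195, 188 and 194 CPM, a log2 fold change of 1.24 (SE 0.08, adjusted p = 1.05e-08) from the same DMSO libraries. SRSF6 (0.97, SE 0.08), SRSF3 (0.82, SE 0.08), SRSF10 (0.71, SE 0.08), SRSF7 (0.64, SE 0.08), SRSF11 (0.39, SE 0.10) and SRSF4 (0.19, SE 0.08) also rose. The call of SRSF4, with an adjusted p of 0.0423, was lost whenever any single one of the 6 libraries was left out. SRSF2 and SRSF1 fell by 0.66 (SE 0.07) and 0.36 (SE 0.08) on the log2 scale. SRSF5, at 222, 339 and 274 CPM, did not pass (adjusted p = 0.0684). NCP26 and HFG were then compared with each other. None of the 10 genes was called as differing between these compounds at 6 h, where 0.26% of all genes were called. Only 1 gene, SRSF6, had an unadjusted p under 0.05, and DESeq2 called 0. The estimates of all 10 genes were lower with NCP26, with a median log2 difference of −0.12, against −0.002 over all genes. The interval of the difference was −0.28 to 0.08 for TRA2A, −0.35 to 0.04 for SRSF3, −0.36 to 0.02 for SRSF2 and −0.38 to −0.01 for SRSF6, so differences of up to about these sizes were not resolved.

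**Figure D1:**
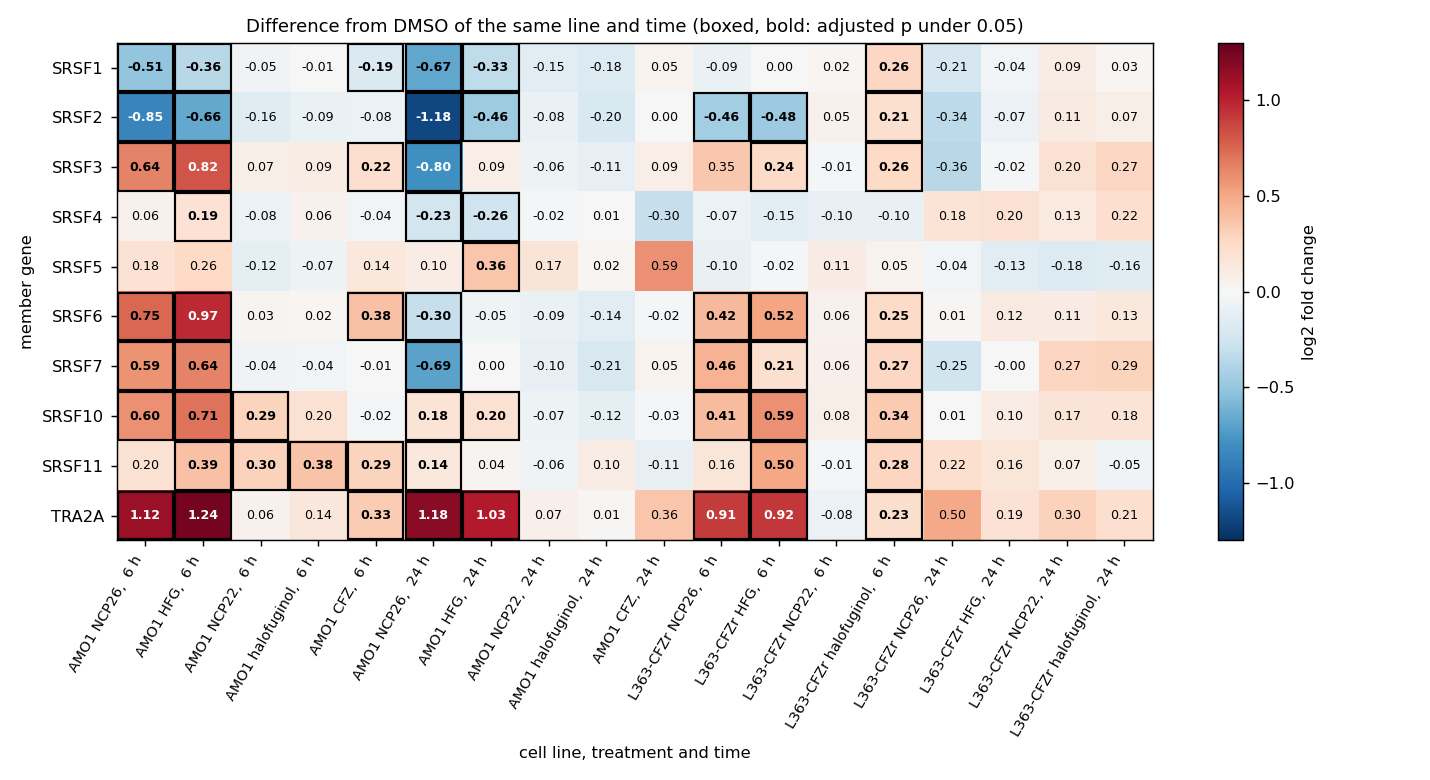
Log2 fold changes of the 10 SR genes (rows) in the 18 comparisons of a compound with DMSO (columns, by cell line and time); color gives the size and sign, and boxed bold values passed an adjusted p of 0.05. TRA2A is the highest value in the NCP26 and HFG columns of AMO1 at both times, and SRSF2 is negative in all 8 NCP26 and HFG columns of the 2 lines.

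The base composition of the transcripts moved with the 6 h results. The GC content of the main transcript was below the median of all genes (49.06%) for 8 of the 10 SR genes, with a median of 39.91% and a range of 35.89% to 51.43%. Across genes, log2 fold changes at 6 h correlated with GC content at r = −0.372 for NCP26 and −0.32 for HFG in AMO1, which is a description of these libraries since genes are not independent replicates. With an offset that removed the trend with GC content, 7 genes were called for NCP26 and 8 for HFG. In that fit TRA2A was higher by 0.93 with NCP26 and by 1.02 with HFG, SRSF3 by 0.42 and 0.54, and SRSF2 remained lower by 0.80 and 0.61 on the log2 scale. The part of GC content in the sizes was not tested further.

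NCP22 and halofuginol, the related compounds, were tested at the same dose and times. With NCP22 at 6 h in AMO1, 2 genes were called, compared with 13.5% of all genes, and these were SRSF11 (0.30, SE 0.09) and SRSF10 (0.29, SE 0.08). With halofuginol, 1 gene was called, compared with 3.62% of all genes, namely SRSF11 (0.38, SE 0.09). The correlation with GC content was stronger here, at r = −0.51 and −0.469, and with the GC offset the calls of SRSF10 and SRSF11 were lost and 1 gene (SRSF1, lower with NCP22) and 0 genes were called. Leaving out single libraries gave between 0 and 2 calls for each compound. TRA2A stood at 83.1, 87.8 and 86.3 CPM with NCP22 and at 85.7, 92.3 and 96.3 CPM with halofuginol, overlapping the DMSO libraries. The direct comparison within each related pair gave the difference itself. NCP26 against NCP22 differed in 7 of the 10 genes (24.7% of all genes), with TRA2A at 1.09 (SE 0.08, adjusted p = 4.52e-06), SRSF6 at 0.75, SRSF7 at 0.66, SRSF3 at 0.60 and SRSF10 at 0.34, and with SRSF2 at −0.66 and SRSF1 at −0.43. HFG against halofuginol differed in 8 genes (51.7% of all genes), with TRA2A at 1.10 (SE 0.07, adjusted p = 4.54e-10), SRSF6 at 0.94, SRSF3 at 0.72, SRSF7 at 0.68, SRSF10 at 0.51 and SRSF5 at 0.33, and with SRSF2 at −0.58 and SRSF1 at −0.36. SRSF11 did not differ detectably within either pair, with intervals of −0.28 to 0.14 and −0.15 to 0.16. The call of SRSF10 in the first pair was lost without 2 single libraries and that of SRSF5 in the second without 1.

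**Figure D2:**
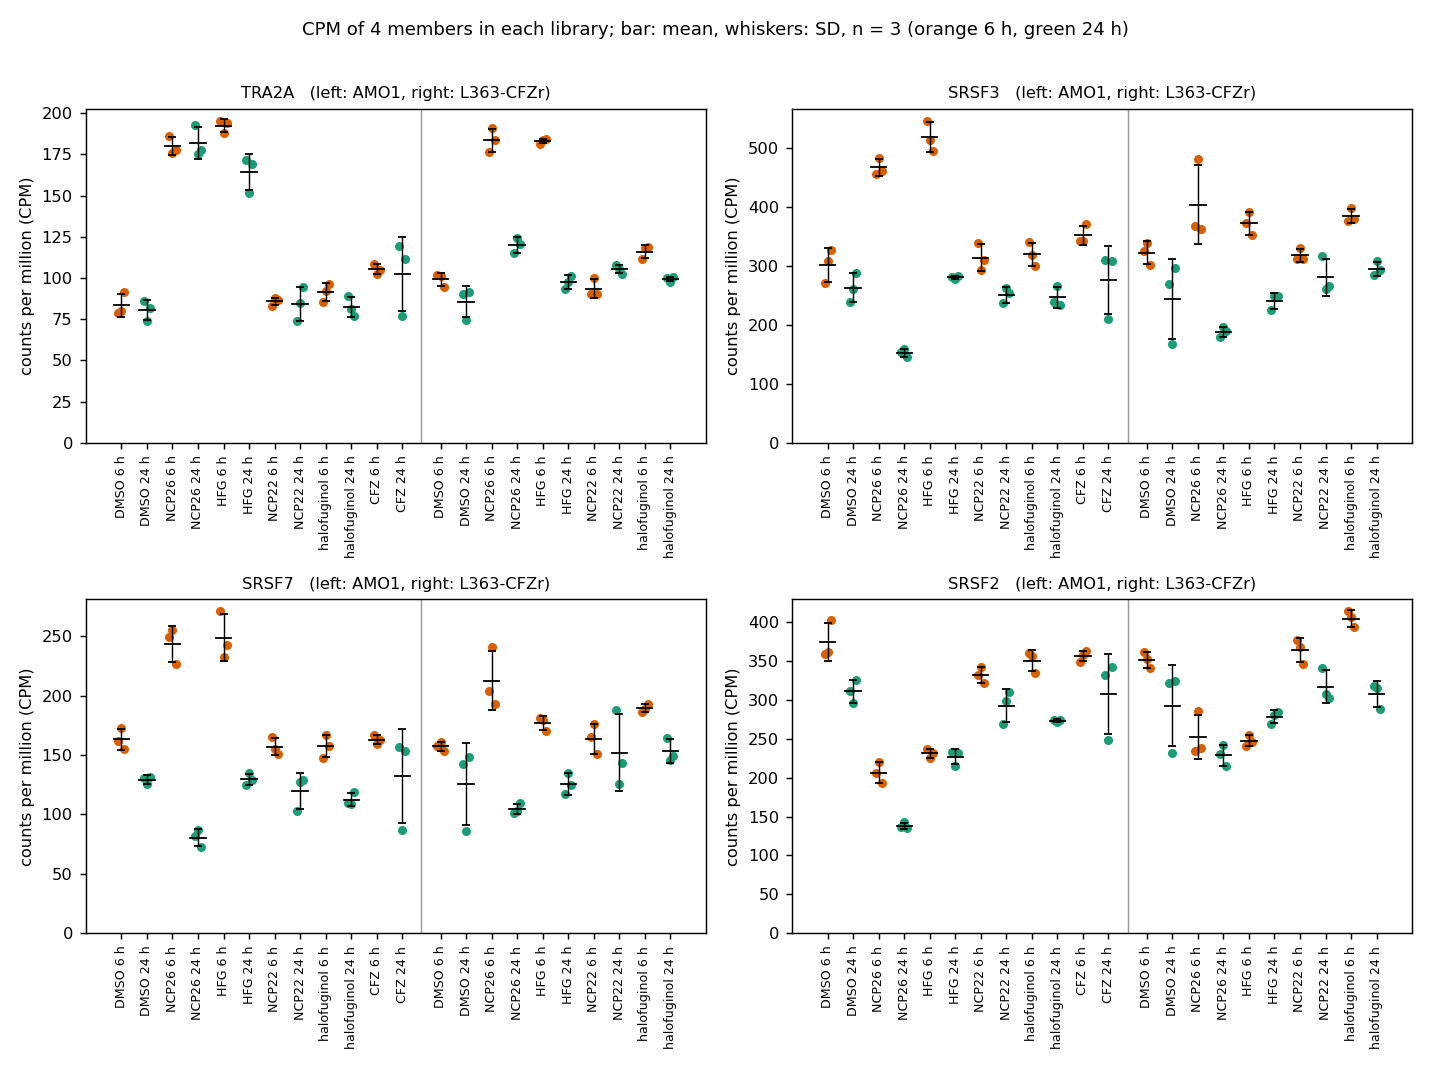
Level of TRA2A, SRSF3, SRSF7 and SRSF2 in every library, in CPM on the axis of each panel, for AMO1 (left) and L363-CFZr (right) at 6 h (orange) and 24 h (green); points are libraries, bars the mean ± SD of 3 replicates. TRA2A in AMO1 lies between 151.5 and 195 CPM in all NCP26 and HFG libraries and between 73.9 and 119 CPM in all other AMO1 libraries. SRSF3 in AMO1 is above DMSO at 6 h and below it at 24 h with NCP26.

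After 24 h with NCP26, AMO1 cells kept the higher TRA2A level while most other SR genes were below DMSO. TRA2A stood at 86.2, 74.2 and 81.8 CPM with DMSO and at 193, 175 and 178 CPM with NCP26, a log2 fold change of 1.18 (SE 0.07, adjusted p = 3.53e-15). SRSF2 fell from 311, 296 and 326 CPM to 136, 143 and 135 CPM, a 2.26-fold lower level (log2 fold change −1.18, SE 0.06, adjusted p = 1.34e-17). SRSF3, which had been higher at 6 h, was now lower, at 154, 158 and 145 CPM against 239, 260.3 and 289 CPM with DMSO (log2 fold change −0.80, SE 0.06, adjusted p = 2.55e-12). SRSF7 changed in the same way, from 131, 125 and 132 CPM to 81.4, 86.7 and 72.6 CPM (log2 fold change −0.69, SE 0.07). SRSF6, which had also been higher at 6 h, was lower by 0.30 (SE 0.06) on the log2 scale. SRSF1 fell by 0.67 (SE 0.05) and SRSF4 by 0.23 (SE 0.07), and SRSF10 (0.18, SE 0.07) and SRSF11 (0.14, SE 0.05) were called higher. The call of SRSF10 was lost without 2 single libraries and its sign changed with the GC offset (−0.014), and that of SRSF11 was lost without 3 single libraries. In all, 9 genes were called, compared with 60.7% of all genes. The median log2 fold change of the 10 was −0.27, against 0.01 over all genes.

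With HFG at 24 h, 6 of the 10 SR genes were called, near the 59% of all genes. TRA2A was again the highest, at 172, 151.5 and 169 CPM (log2 fold change 1.03, SE 0.08, adjusted p = 1.83e-09). SRSF2 (−0.46, SE 0.06), SRSF1 (−0.33, SE 0.06) and SRSF4 (−0.26, SE 0.07) fell, and SRSF5 (0.36, SE 0.07) and SRSF10 (0.20, SE 0.07) rose. The call of SRSF10 was lost without 3 single libraries. SRSF3 stood at 282, 278 and 283 CPM (0.09, interval −0.05 to 0.22) and SRSF7 at 125, 135 and 129 CPM (0.00, interval −0.14 to 0.14), within or near the DMSO range. NCP26 and HFG, which had not differed detectably at 6 h, differed at 24 h in 6 genes (44.9% of all genes), all lower with NCP26 (22.4% of all genes were). These were SRSF3 (−0.89, SE 0.06), SRSF2 (−0.73, SE 0.06), SRSF7 (−0.71, SE 0.08), SRSF1 (−0.36, SE 0.06), SRSF5 (−0.28, SE 0.07) and SRSF6 (−0.26, SE 0.06). TRA2A did not differ between them (0.14, interval −0.00 to 0.28, adjusted p = 0.107).

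At 24 h the AMO1 libraries of NCP26, NCP22, HFG and halofuginol and the DMSO libraries came from different sets of sample numbers. With a term for the set in a fit of all AMO1 groups, 4 genes were called for NCP26, compared with 25.2% of all genes, namely TRA2A (1.49), SRSF2 (−1.03), SRSF3 (−0.55) and SRSF1 (−0.42). For HFG 1 gene was called in that fit, TRA2A (1.35), compared with 31.3% of all genes. CFZ at 24 h is the only AMO1 group split between sets, so the term rests on its replicate 1 against replicates 2 and 3. Replicate 2 correlated least with its own group, and the fit was not run without it. The fit therefore cannot settle the part of the set. The related compounds at 24 h all belonged to 1 set. NCP26 against NCP22 differed there in 8 genes (52% of all genes), among them TRA2A (1.12, SE 0.09), SRSF2 (−1.07, SE 0.07), SRSF3 (−0.71, SE 0.07), SRSF7 (−0.57, SE 0.10) and SRSF1 (−0.50, SE 0.06), with smaller differences for SRSF10 (0.27), SRSF11 (0.22) and SRSF6 (−0.19). The calls of SRSF11, SRSF6 and SRSF10 were lost without 5, 3 and 1 single libraries. HFG against halofuginol differed in 7 (56.6% of all genes), with TRA2A at 1.02 (SE 0.08), SRSF5 at 0.35, SRSF10 at 0.33, SRSF4 at −0.26, SRSF2 at −0.25, SRSF7 at 0.22 and SRSF3 at 0.20. Here the calls of SRSF7, SRSF3 and SRSF4 were lost without 3, 2 and 1 single libraries. Against DMSO, no SR gene was called in edgeR for NCP22 or halofuginol at 24 h, when 0% and 0.183% of all genes were. At an unadjusted p under 0.05 there were 1 and 4 SR genes, and the Wald test of DESeq2 called 0 and 1.

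The change between 6 h and 24 h was tested directly in AMO1 as the difference of the log2 fold changes against DMSO. For NCP26 it was called in 5 genes (17.5% of all genes), each lower at 24 h (10.1% of all genes). These were SRSF3 (−1.44, SE 0.12, adjusted p = 4.25e-07), SRSF7 (−1.29, SE 0.12), SRSF6 (−1.06, SE 0.11), SRSF10 (−0.42, SE 0.10) and SRSF2 (−0.33, SE 0.11), whose call was lost in 8 of 12 fits that left out 1 library. For HFG it was called in 6 genes (39.6% of all genes). SRSF6 (−0.99, SE 0.10), SRSF3 (−0.69, SE 0.11), SRSF7 (−0.61, SE 0.10), SRSF10 (−0.47, SE 0.10) and SRSF4 (−0.42, SE 0.09) were lower at 24 h and SRSF2 was higher (0.24, SE 0.09), a call lost in 7 of 12 such fits. For TRA2A the difference was 0.05 (interval −0.20 to 0.30) with NCP26 and −0.18 (interval −0.42 to 0.05) with HFG, and neither was called. With the term for the set, 3 genes were called for NCP26, SRSF3 (−1.19), SRSF6 (−0.92) and SRSF7 (−0.90), and 1 for HFG, SRSF6 (−0.85). This term again rests on the CFZ libraries at 24 h alone.

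**Figure D3:**
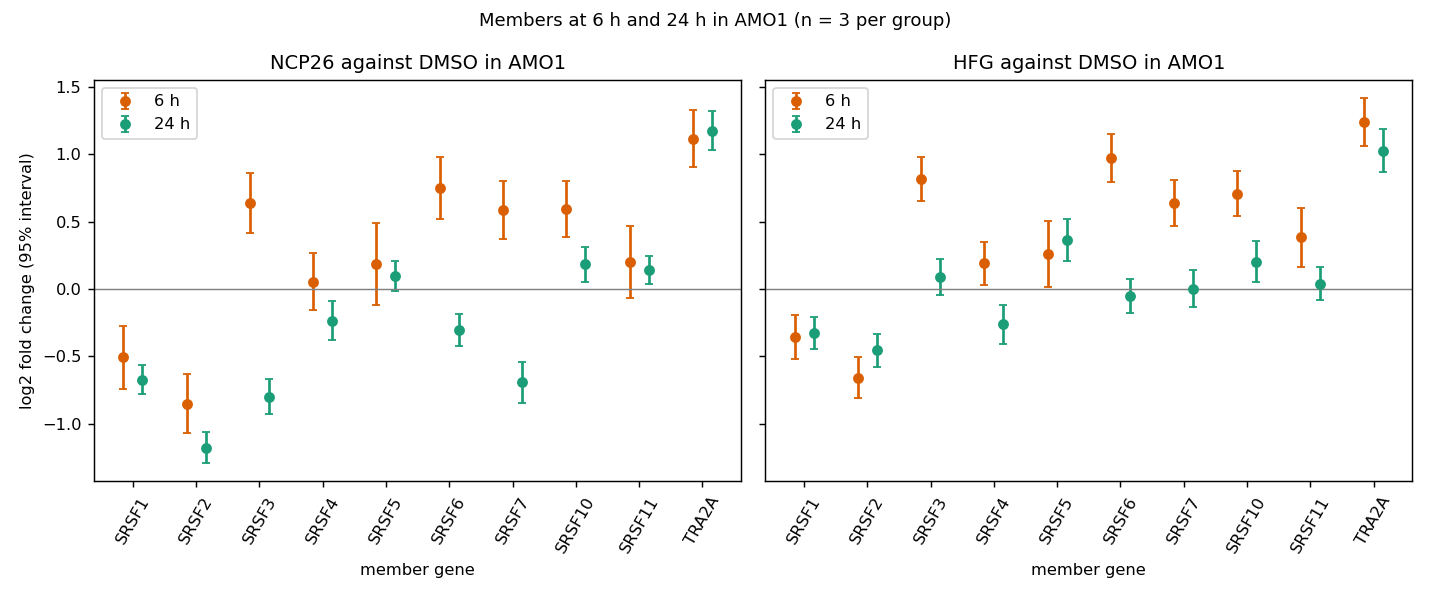
Log2 fold change against DMSO in AMO1 for each SR gene with NCP26 and with HFG at 6 h and 24 h; points are estimates and bars 95% intervals. With NCP26, SRSF3, SRSF6 and SRSF7 were called above 0 at 6 h and below 0 at 24 h, whereas TRA2A lies between 1.03 and 1.24 in all 4 comparisons.

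In L363-CFZr at 6 h TRA2A was the highest and SRSF2 the lowest of the 10 genes with both NCP26 and HFG. With NCP26, 5 of the 10 genes were called, compared with 18.8% of all genes. TRA2A went from 102, 101 and 94.5 CPM to 176, 191 and 184 CPM (log2 fold change 0.91, SE 0.09, adjusted p = 0.000159). SRSF7 (0.46, SE 0.11), SRSF6 (0.42, SE 0.09) and SRSF10 (0.41, SE 0.10) rose, and SRSF2 fell from 362, 354 and 341 CPM to 235, 285 and 239 CPM (−0.46, SE 0.10, adjusted p = 0.0126). SRSF3 stood at 367, 481 and 362.9 CPM against 326, 339 and 301.0 CPM with DMSO, and its log2 fold change of 0.35 did not pass (adjusted p = 0.0721). The calls other than that of TRA2A rested on few libraries, and without replicate 1 of the DMSO group 1 gene was called and without its replicate 3 there were 2. With the GC offset 3 genes were called, TRA2A (0.74), SRSF2 (−0.42) and SRSF1 (−0.31).

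With HFG at 6 h in L363-CFZr, 7 genes were called, compared with 54.5% of all genes. TRA2A reached 181, 184 and 184 CPM (log2 fold change 0.92, SE 0.07, adjusted p = 1.19e-10). SRSF10 (0.59, SE 0.07), SRSF6 (0.52, SE 0.07), SRSF11 (0.50, SE 0.08), SRSF3 (0.24, SE 0.06) and SRSF7 (0.21, SE 0.07) rose, and SRSF2 fell by 0.48 (SE 0.06), to 242, 255 and 246 CPM. The HFG libraries here were of another set than DMSO, and log2 fold changes across genes followed GC content more closely, at r = −0.568. With the GC offset TRA2A was at 0.63, and SRSF3 (−0.12) and SRSF7 (−0.14) changed sign and were not called. With the set term 4 genes were called (19.6% of all genes), TRA2A (0.99), SRSF10 (0.79), SRSF11 (0.67) and SRSF6 (0.57). The term rests on NCP22 at 6 h, the only L363-CFZr group split between sets, with replicate 3 apart from replicates 1 and 2. Halofuginol at 6 h, also of the other set and with r = −0.717, gave 8 calls (25.8% of all genes) that were all higher (13.6% of all genes), by 0.21 to 0.34, but 1 with the GC offset and 0 with the set term. HFG and halofuginol belonged to 1 set, and between them 6 genes differed (47.3% of all genes). These were TRA2A (0.70, SE 0.05, adjusted p = 2.59e-12), SRSF2 (−0.68, SE 0.04), SRSF6 (0.27), SRSF1 (−0.26), SRSF10 (0.25) and SRSF11 (0.23). NCP26 against NCP22 differed in 4 genes (20.4% of all genes), TRA2A (0.98, SE 0.10), SRSF2 (−0.52, SE 0.11), SRSF7 (0.38, SE 0.11) and SRSF6 (0.35, SE 0.10), and in 2 when the comparison was held within 1 set (7.97% of all genes) or when replicate 1 of NCP26 or any replicate of NCP22 was left out. NCP22 against DMSO gave 0 calls among the SR genes and 0% among all genes in edgeR, with 0 SR genes at an unadjusted p under 0.05 and 0 in the Wald test of DESeq2.

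At 24 h in L363-CFZr no SR gene passed the edgeR test against DMSO for any of the 4 compounds, when 7.09% of all genes were called for NCP26, 1.17% for HFG and 0% for NCP22 and halofuginol. TRA2A stood at 115, 124 and 121 CPM with NCP26 against 90.2, 74.8 and 91.8 CPM with DMSO (log2 fold change 0.50, adjusted p = 0.0621). TRA2A was the 1 SR gene with an unadjusted p under 0.05 for NCP26 and for NCP22, and there was none for HFG or halofuginol. The Wald test of DESeq2 called 1 gene for NCP26 and 0 for the others. Replicate 2 of the DMSO group carried the lowest SRSF3 (167 CPM, against 269 and 296 CPM in the other replicates) and SRSF7 (85.6 CPM, against 142 and 148 CPM) of that group. Without it 5 genes were called for NCP26 (28.6% of all genes), SRSF3 (−0.58), SRSF2 (−0.49), SRSF7 (−0.47), SRSF1 (−0.33) and TRA2A (0.41), and 3 for HFG (19.5%), SRSF3 (−0.23), SRSF2 (−0.21) and SRSF7 (−0.21), against 0 for NCP22 and halofuginol (0% of all genes). The comparisons between related compounds do not use the DMSO libraries. NCP26 against NCP22 differed in 4 genes (34.1% of all genes), SRSF3 (−0.57, SE 0.09), SRSF7 (−0.53, SE 0.12), SRSF2 (−0.46, SE 0.08) and SRSF1 (−0.31, SE 0.08), whereas TRA2A was at 0.19 (adjusted p = 0.0797). HFG against halofuginol differed in 3 (21.9% of all genes), SRSF3 (−0.30, SE 0.06), SRSF7 (−0.29, SE 0.07) and SRSF11 (0.21, SE 0.07), with TRA2A at −0.03 (interval −0.18 to 0.12). The count was 1 without replicate 1 of HFG and 5 without replicate 3 of halofuginol.

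The lines were compared through the difference of their effects. For NCP26 at 6 h no SR gene was called as differing between L363-CFZr and AMO1 in the edgeR fit of the groups compared only (2.71% of all genes) or in DESeq2. In that edgeR fit 3 genes had an unadjusted p under 0.05, with intervals of the difference of −0.49 to 0.05 for TRA2A and 0.09 to 0.67 for SRSF2. The edgeR fit of all groups of both lines called 3 SR genes, with or without the set term. At 24 h the NCP26 effect differed in 2 genes (5.41% of all genes). The effect on TRA2A was smaller in L363-CFZr by 0.70 on the log2 scale (SE 0.15, adjusted p = 0.0161), and that on SRSF2 was less negative by 0.81 (SE 0.18, adjusted p = 0.0203). For HFG at 24 h the effect on TRA2A was smaller by 0.85 (SE 0.14, adjusted p = 0.00162), and SRSF4 also differed (0.45, SE 0.13), so 2 genes were called (16.9% of all genes). Without replicate 2 of L363-CFZr DMSO at 24 h the TRA2A differences were −0.79 for NCP26 (4 genes called, 21.1% of all genes) and −0.93 for HFG (5 genes called, 33.4%). With the set term they were −1.03 and −1.18, and both remained called. In fits of both lines the set term rests on CFZ at 24 h in AMO1 and NCP22 at 6 h in L363-CFZr. No other group is split between sets, so such fits cannot settle the part of the set. The call of TRA2A for NCP26 was lost without replicate 2 of AMO1 DMSO or replicate 1 of AMO1 NCP26, with log2 differences of −0.79 to −0.64 over the left-out libraries, that of SRSF2 was lost in 6 of 12 fits without 1 library and that of SRSF4 in 10 of 12. In DMSO alone at 6 h, SRSF6 (−0.41), SRSF4 (−0.33) and SRSF10 (−0.33) were lower and TRA2A (0.23) higher in L363-CFZr (4 called, compared with 60.2% of all genes). The call of TRA2A was lost without 4 of the 6 single libraries. The lines were of different sets, and with the set term 1 gene was called, TRA2A (0.59). At 24 h, 4 genes were called (39.9% of all genes), with SRSF4 (−0.61), SRSF11 (−0.38) and SRSF6 (−0.30) lower and SRSF5 (0.49) higher. Without replicate 2 of L363-CFZr DMSO there were 5 (65% of all genes), with SRSF7 (0.16) added, and without any other single library of that comparison 1 to 2. With the set term 0 were called (20.7% of all genes) and SRSF5 changed sign (−0.25).

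CFZ, which blocks the proteasome, was tested in AMO1 against the same DMSO libraries. At 6 h the heat shock gene DNAJB1 was higher by 5.33 on the log2 scale, and 5 SR genes were called, compared with 26.9% of all genes. SRSF6 (0.38, SE 0.08), TRA2A (0.33, SE 0.09), SRSF11 (0.29, SE 0.10) and SRSF3 (0.22, SE 0.07) rose and SRSF1 fell by 0.19 (SE 0.07). TRA2A stood at 109, 103 and 105 CPM, above the DMSO libraries and below every NCP26 and HFG library at 6 h. Leaving out single libraries gave 2 to 4 calls. The difference between CFZ and the other compounds was not tested. At 24 h no SR gene was called in edgeR (27% of all genes), 2 had an unadjusted p under 0.05, and DESeq2 called 1. Replicate 2 stood apart, with SRSF5 at 459 CPM against 306 and 274 CPM in the other replicates. Without it 6 genes were called (48.2% of all genes), TRA2A (0.53), SRSF5 (0.32), SRSF7 (0.27), SRSF3 (0.23), SRSF4 (−0.19) and SRSF1 (0.17). Set 1 held 1 of the 3 CFZ libraries and all DMSO libraries, and within it there were 5 calls (38.2%), from a fit in which the lone CFZ library is assumed to vary like the DMSO libraries. The CFZ effect at 24 h against that at 6 h was called in 0 SR genes in edgeR (19.6% of all genes), with 2 at an unadjusted p under 0.05 and 0 in the Wald test of DESeq2, and in 3 without that replicate (30.6%), SRSF1 (0.35), SRSF6 (−0.30) and SRSF7 (0.27).

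Other genes of RNA splicing are given for comparison, with lists that were drawn up with earlier results of these data known. In AMO1 with NCP26 at 6 h, 0 of 34 core spliceosome genes rose and 16 fell, with a median log2 fold change of −0.34. Of 23 hnRNP and PTB proteins, which often oppose SR proteins at exons, 1 rose and 11 fell (median −0.26). The 2 largest changes were of SF3A2 (−1.29), a subunit of the U2 particle, and SNRPB (−0.88), a component of the Sm ring, in the first list and of HNRNPAB (−0.64) and HNRNPA0 (−0.62) in the second. Among 20 other SR and SR-like proteins 7 rose and 8 fell (median −0.17), led by U2AF2 (−1.22), which recognizes the polypyrimidine tract, and RSRC2 (0.84). Of 9 genes for the kinases that phosphorylate SR proteins and for their importer, 4 rose and 3 fell (median 0.22), with CLK3 at −0.84 and DYRK1A at 0.79. Of a list of 22 other transcripts held low by nonsense-mediated decay, 13 were among the counted genes. Those 13 had 7 higher, 0 lower and a median of 0.50. Of all genes, 18.1% rose and 19.2% fell, and of the 10 SR genes 5 rose and 2 fell. The 7 decay targets that rose were GADD45B (2.56), TAF1D (0.88), SMG1, SMG6, UPF2, UPF3B and UPP1. Of these, GADD45B is also a stress-induced gene, and SMG1, SMG6, UPF2 and UPF3B encode factors of the decay pathway itself. With HFG at 6 h the counts were 7 higher and 2 lower of the 10 SR genes, 1 and 25 of the 34 core genes, 3 and 12 of the hnRNP and PTB proteins, 7 and 5 of the SR-like proteins and 9 and 0 of the decay targets, against 27.7% and 26.6% of all genes. With NCP22 at 6 h 0 core genes rose and 11 fell (13.5% of all genes called), and with halofuginol 0 and 1 (3.62%). Values with the GC offset are given only for the 10 SR genes. The part of GC content in the other lists was not tested. With NCP26 at 24 h the decay targets stood at 7 higher and 0 lower (median 0.30) while the SR genes stood at 3 higher and 6 lower, against 29.8% and 30.9% of all genes. The decay targets stood at 6 higher and 3 lower with HFG at 24 h (median 0.20) and at 7 and 0 with CFZ at 6 h (median 0.27) in AMO1. In either direction 69.2% and 53.8% of them were called, compared with 59% and 26.9% of all genes. In L363-CFZr at 6 h they stood at 3 and 1 with NCP26 and 5 and 1 with HFG, each with a median of 0.07. There 30.8% and 46.2% of them were called in either direction, compared with 18.8% and 54.5% of all genes.

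The 10 genes differed in how far their levels spread over the 22 groups. The ratio of the highest to the lowest group mean was 3.40 for SRSF3, 3.10 for SRSF7, 2.94 for SRSF2, 2.50 for SRSF6 and 2.38 for TRA2A, and it was 2.12 for SRSF1, 2.05 for SRSF10, 1.93 for SRSF11, 1.69 for SRSF4 and 1.59 for SRSF5. SRSF3 and SRSF7 were lowest in AMO1 with NCP26 at 24 h, where SRSF1 and SRSF2 also had their lowest group mean. Per kilobase of the main transcript, the level in AMO1 DMSO at 6 h was highest for SRSF2 (199 CPM per kb), followed by SRSF5 (159), SRSF1 (79.5), SRSF3 (71.3), SRSF7 (69.2), SRSF4 (53.1), TRA2A (46.7), SRSF6 (38.6), SRSF11 (37.2) and SRSF10 (17.4). Counts of some of these genes can include reads of others, since 34.7% of the 31-base words of SRSF1 transcripts, 24.2% of those of SRSF2 (with MFSD11, on the opposite strand of the same locus) and 16.7% of those of SRSF6 also occur in another annotated gene, against under 5% for the other 7. Whether strand was used in the counting was not given in the sources used here. The falls of SRSF1 and SRSF2 and the rises of SRSF6 carry this uncertainty, whereas TRA2A shares 1.54% and SRSF7 0%.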

How the data were processed

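RNA was selected for polyadenylated transcripts and sequenced as directional paired-end libraries on a NextSeq 500. The authors deposited one table of raw counts per gene, made with kallisto, which assigns reads by 31-base words. The kallisto version and annotation, and how transcripts were combined into genes, were not given in the sources used here. The study's methods name GRCh38 and the submitters' processing notes name hg19. Symbols, coordinates, GC content and sequences were taken here from GENCODE v44 on GRCh38. All 66 columns were mapped to 22 groups of 3 replicates by their labels. Totals were 1666325 to 6596543 counts, and member genes had 165 to 3164 counts per library.

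Each of 36 comparisons was fitted with edgeR 4.0.16 in R 4.3.3 on the groups compared only, with filterByExpr (minimum count 10, minimum total 15), TMM scaling, glmQLFit and glmQLFTest, and Benjamini-Hochberg adjustment over all genes tested at 0.05. The study used DESeq2. Interactions were differences of log2 fold changes in 1 fit. Standard errors were derived from the F statistic, and intervals are 95%. CPM levels use TMM-scaled library sizes over all 66 libraries and can differ slightly from the fitted fold changes. The test was also run on simulated counts, with and without a trend with GC content. Those counts held no effect of the sets of sample numbers, so they cannot show how the test behaves with one. The 10 genes, the gene lists and the tests were chosen with earlier results of these data known. The genes named are all 10 members, ASNS and DNAJB1 as treatment checks and, in the other lists, the 2 called genes with the largest change with NCP26 at 6 h in AMO1; the other 5 decay targets were named after their values were seen.

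Same-numbered replicates were checked for pairing, and all 3 pairs exceeded a correlation of 0.1 in 0 of 30 comparisons (−0.353 to 0.3). Alternatives were DESeq2 1.42.0 size factors and Wald test, no filter, the replicate block, leaving out each library, a GC offset (lowess, span 0.3), larger fits, a term for the sets of sample numbers and fits within a set. The term for the sets and the fits within a set were chosen after seeing the data. The term rests on the groups split between sets, which are CFZ at 24 h in AMO1 and NCP22 at 6 h in L363-CFZr.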

Additional observations from a re-analysis of the deposited data

Results flagged for a closer look

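The effect of a compound against DMSO differed between 6 h and 24 h in AMO1, or between the lines at 24 h, by a test of the difference itself in 15 cases, given here as log2 differences from edgeR's quasi-likelihood test. All differences of 1 time and line rest on the same 3 DMSO libraries.

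For NCP26 in AMO1 the effect at 24 h minus that at 6 h was −1.44 for SRSF3, −1.29 for SRSF7, −1.06 for SRSF6, −0.42 for SRSF10 and −0.33 for SRSF2, the last lost in 8 of 12 fits that left out 1 library. For HFG the same difference was −0.99 for SRSF6, −0.69 for SRSF3, −0.61 for SRSF7, −0.47 for SRSF10, −0.42 for SRSF4 and 0.24 for SRSF2, the last lost in 7 of 12 such fits. The treated libraries at 24 h and the DMSO libraries at 24 h came from different sets of sample numbers, and with a term for the set SRSF3 (−1.19), SRSF6 (−0.92) and SRSF7 (−0.90) were still called for NCP26 and SRSF6 (−0.85) for HFG. That term rests on CFZ at 24 h, the only AMO1 group split between sets.

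For NCP26 at 24 h the effect in L363-CFZr minus that in AMO1 was 0.81 for SRSF2 and −0.70 for TRA2A. For HFG at 24 h it was 0.45 for SRSF4 and −0.85 for TRA2A. Replicate 2 of L363-CFZr DMSO at 24 h stood apart from its group. Without it the differences were 0.66 for SRSF2 and −0.79 for TRA2A with NCP26, and 0.40 for SRSF4 and −0.93 for TRA2A with HFG. Over all fits that left out 1 of the 12 libraries, the call was lost in 10 for SRSF4, in 6 for SRSF2, in 2 for TRA2A with NCP26 and in 0 for TRA2A with HFG.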

How the results depend on the processing

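Of 135 values called for the 10 SR genes, recomputed under the alternatives that applied to each, 1553 of 1849 kept direction and call, 290 kept direction and lost the call, and 6 changed sign. Among them 133 of 135 held with DESeq2 size factors, 122 of 135 with the DESeq2 Wald test, 122 without the filter, 122 with the replicate block, 100 with the GC offset and 78 of 123 with a term for the set in 1 fit per line. Fits that left out 1 library kept 765 of 900, and these share most of their libraries with the main fits. All groups of a line in 1 fit kept 93 of 123. Both lines in 1 fit kept 12 of 12, but 4 of 12 with the set term. The cause of the losses was not tested. The depth of 165 to 3164 counts per gene and library and the 3 replicates limit what small differences could be called.

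With the GC offset the sign changed for SRSF10 with NCP26 in AMO1 at 24 h (−0.014), for SRSF3 (−0.12) and SRSF7 (−0.14) with HFG in L363-CFZr at 6 h, and for SRSF1 (−0.00039) and SRSF10 (−0.0080) with halofuginol in L363-CFZr at 6 h. With the set term in 1 fit of both lines it changed for SRSF5 between the lines in DMSO at 24 h (−0.25). Counts of called SR genes that moved by over 1.5 times were as follows. The GC offset gave 1 for NCP22 and 0 for halofuginol in AMO1 at 6 h, and 3 for NCP26 and 1 for halofuginol in L363-CFZr at 6 h. The DESeq2 Wald test gave 1 each for halofuginol and CFZ in AMO1 and NCP26 in L363-CFZr at 24 h. Without the filter there was 1 for CFZ in AMO1 at 24 h, 1 for the HFG difference between lines at 24 h and 2 between lines in DMSO at 24 h.

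All groups of a line in 1 fit gave, in AMO1, 1 for NCP22, 0 for halofuginol and 2 for CFZ at 6 h, 3 for CFZ at 24 h, 4 for HFG against halofuginol at 24 h and 2 for the change of the CFZ effect with time. In L363-CFZr it gave 1 for halofuginol at 6 h, 2 for NCP26 at 24 h and 0 for HFG against halofuginol at 24 h. The set term added to that fit gave, in AMO1, 1 for NCP22, 0 for halofuginol and 2 for CFZ at 6 h, 4 for NCP26, 1 for HFG, 1 for CFZ and 4 for HFG against halofuginol at 24 h, and 3, 1 and 1 for the change with time of NCP26, HFG and CFZ. In L363-CFZr it gave 4 for HFG and 0 for halofuginol at 6 h, and 2 for NCP26 and 0 for HFG against halofuginol at 24 h. Both lines in 1 fit gave 3 and 5 for the NCP26 difference between lines at 6 h and 24 h, and with the set term 3 at 6 h, 1 for the HFG difference at 24 h, and 1 and 0 between lines in DMSO at 6 h and 24 h. Within set 1, CFZ in AMO1 at 24 h gave 5 with 1 CFZ library, which is assumed to vary like the DMSO libraries, and within set 2, NCP26 against NCP22 in L363-CFZr at 6 h gave 2.

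Pairing by replicate number was not detected, although a check with 3 replicates per group cannot show that the samples were unpaired. The replicate block gave 1 for NCP26 in L363-CFZr at 6 h, 1 for the HFG difference between lines at 24 h and 1 between lines in DMSO at 24 h, and moved no other count by over 1.5 times. Leaving out each library in turn gave, in AMO1, 0 to 6 for CFZ at 24 h, 2 to 4 for CFZ at 6 h, 0 to 2 each for halofuginol and NCP22 at 6 h, and 0 to 3 for the change of the CFZ effect with time. In L363-CFZr it gave 1 to 6 for NCP26 at 6 h, 0 to 5 for NCP26 and 0 to 3 for HFG at 24 h, 1 to 5 for HFG against halofuginol at 24 h and 2 to 6 for NCP26 against NCP22 at 6 h. Between the lines at 24 h it gave 0 to 4 for NCP26, 1 to 5 for HFG and 1 to 5 for DMSO. For NCP26 in AMO1 the ranges were 7 to 7 at 6 h and 7 to 10 at 24 h, and for HFG 8 to 9 and 5 to 7.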

Other observations

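The genes whose group means followed the mean standardized profile of the 10 SR genes most closely, by the smaller of Pearson's r over the 12 AMO1 groups and over the 10 L363-CFZr groups, were PCGF6 (0.835), NOP58 (0.834), TEX9 (0.819), TTC27 (0.817) and DNAJC2 (0.812). This is a description across group means that share libraries and DMSO controls. The 10 genes did not share 1 profile, so the mean does not stand for each of them. Between pairs of them, r ran from −0.807 (SRSF2 with TRA2A) to 0.984 (SRSF3 with SRSF7) over the AMO1 groups. Over the L363-CFZr groups it ran from −0.887 (SRSF5 with SRSF7) to 0.986 (SRSF3 with SRSF7). TRA2B, the paralog of TRA2A, and SRSF9 were looked up after their values were seen. In AMO1 at 6 h TRA2B was at 0.33 with NCP26 and 0.44 with HFG, and SRSF9 was at −0.50 and −0.40 on the log2 scale. The premature-stop exon of SRSF4 (chr1:29165890-29166064, minus strand) has 175 bases. SRSF11 has 3 such exons, of 62 (chr1:70230557-70230618, plus strand), 109 and 117 bases. The stop in the exon of 109 bases was not in frame with the annotated coding start.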
